A study of Sus scrofa with 21 samples.

Results

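Ion channels are membrane proteins that let potassium, sodium, calcium, chloride or protons cross a membrane. Potassium channels set the membrane potential, calcium channels raise the calcium level inside the cell, and auxiliary subunits change how the pore-forming subunits open. In blood, lymphocytes enter activation through the calcium sensor STIM1 and the channel ORAI1, potassium channels such as KCNA3 and KCNN4 hold the membrane potential during that entry, and red cells use KCNN4, the Gardos channel, to regulate volume. The genes described here were chosen by the symbol given in the scanner files, from the names beginning with KCN, CACN, CLCN, CLIC, P2RX, ORAI, HVCN or VDAC, together with the numbered SCN, TRP, STIM and ITPR genes. The rule gave 98 of the 16009 gene names on the array, measured by 161 probes. KCNQ3 carries a KCN name but is left out by the rule.

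Total RNA from whole blood of 60-day-old pigs was labelled with Cy3 and hybridized to a custom Agilent pig array, with 1 array per animal. The 10 DD pigs (SLAdd, an inbred minipig line kept homozygous at the swine leucocyte antigen locus) came from 5 sows, and the 11 LW pigs (Large White, the control breed) from 6 sows. All animals received a standard diet ad libitum and no treatment, and no gene was altered in either breed. The breeds differ in origin, size and inbreeding at once, and whole blood mixes all blood cells, so that fewer cells of a type and less RNA per cell cannot be told apart.

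The arrays were spread over 3 chips. Chip 1 carried 3 DD and 4 LW pigs, chip 2 carried 4 of each breed, and chip 3 carried 3 of each. Between 44.7% and 63.8% of the probes of an array were well above background. The DD arrays were dimmer than the LW arrays, and the gap differed between chips. Array brightness, measured by the 75th percentile of the processed signal on a log2 scale, was 7.95 in DD and 8.02 in LW pigs on chip 1. The values were 7.55 and 8.31 for chip 2, against 7.09 and 8.36 for chip 3. The study's methods report a technical bias of the third chip, and the chip was therefore part of the model. Of 39 blood cell marker genes tested over 7 lists, 33 were well above background on every array. With 21 arrays, precision is limited by their number.

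The first question was which channel genes gave a signal in blood. A gene was counted as above background on an array when at least 1 of its probes carried the scanner flag for a signal well above background. Of the 98 genes, 37 were above background on all 21 arrays, 39 on some arrays and 22 on no array. Among the 39, 16 reached this level on only 1 or 2 arrays. The porins of the outer mitochondrial membrane were the family most uniformly detected, with VDAC1, VDAC2, VDAC3 and VDAC1P5 above background on all arrays. The probes named VDAC1P5 carry an identifier that the RefSeq table gives to VDAC3, so that these 4 names may stand for 3 genes. ORAI1 and STIM1 were also above background on all arrays, and ITPR1, a calcium release channel of the endoplasmic reticulum, on 9 DD and 11 LW arrays. The two-pore domain potassium channels, which carry leak currents, were at the other end, since 0 of their 5 genes were above background on all arrays. Of the 21 voltage-gated potassium channel subunits, 6 were above background on all arrays, 9 on some and 6 on none.

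**Figure D1:**
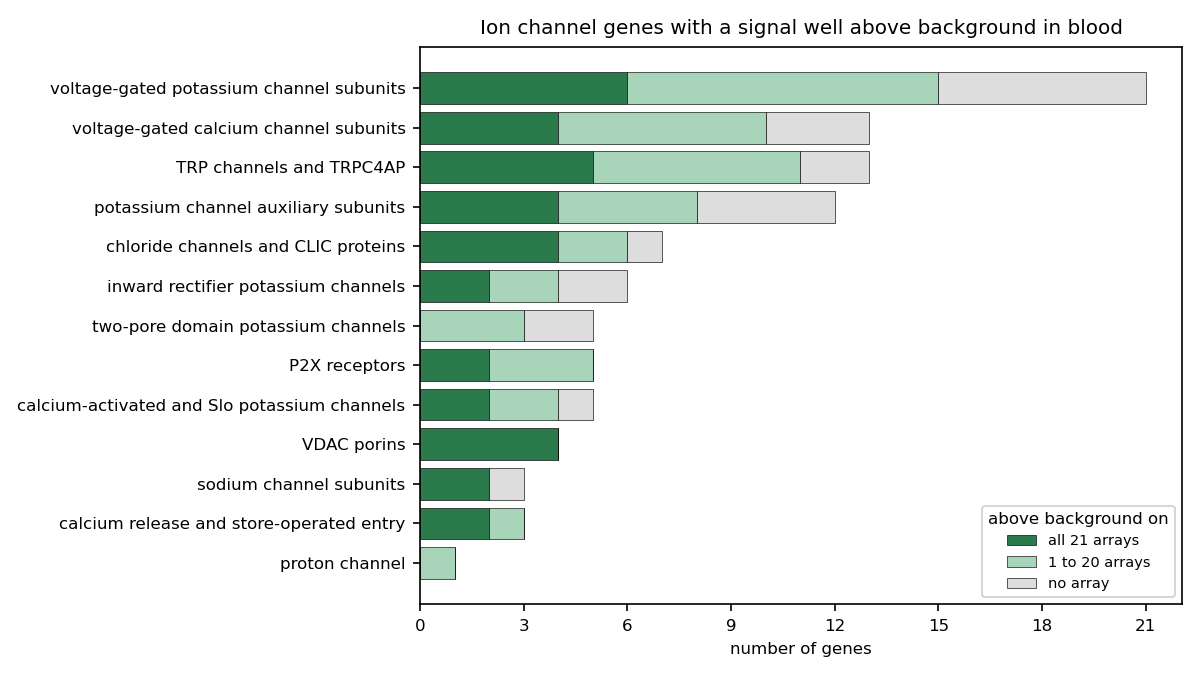
Number of ion channel genes (x axis) by family (y axis), split by the number of arrays on which the gene had a signal well above background. Of 98 genes, 37 were above background on all 21 arrays, 39 on some and 22 on none, and all 4 VDAC names, 2 of which may be 1 gene, were in the first class.

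The genes with no array above background included CACNA2D2, CACNG3, CACNG7, CLCN2, KCND2, KCND3, KCNE4, KCNF1, KCNH6, KCNIP4, KCNJ13, KCNJ15, KCNK3, KCNK13, KCNMB2, KCNMB3, KCNQ1, KCNU1, KCNV1, TRPC1 and TRPM3. A probe without signal gives only an upper bound for its own target sequence. In 11 genes, 1 probe was above background on all arrays while another was above background on at most 1 array, and KCNS3, KCNA5, KCNN4, CLIC2, CACNG1, CACNA2D1, KCNE3, KCNJ11, KCNMB4, TRPM2 and TRPV6 belong to this group.

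The second question was which channel genes differed between the breeds. Once the dimmest 25% of probes were removed, 68 of the 98 genes remained. The other 30 were above background on at most 2 arrays each. In the limma model, 16 of the 68 genes passed an adjusted p of 0.05, and the 16 genes were all higher in DD pigs, while 0 were lower. Over all 13524 genes tested, 23.6% passed this threshold, 10.9% as higher and 12.7% as lower in DD pigs. The share of channel genes that passed, 23.5%, was thus close to that of all genes, and the direction was not evenly split. At an unadjusted p below 0.05, 20 channel genes were higher and 6 lower. The median log2 fold change (FC), DD against LW, was 0.10 over the 68 channel genes and −0.08 over all genes tested. The count of 0 lower genes holds for the names of the rule. The probe of KCNQ3, a subunit of the M-type potassium channel, was above background on 0 DD arrays and on 11 LW arrays, and its expression was at least 3.40-fold lower in DD pigs (limma, adjusted p = 7.28e-06). Counts of genes that passed the filter are given as a description, because a gene dim in one breed can pass through the other.

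**Figure D2:**
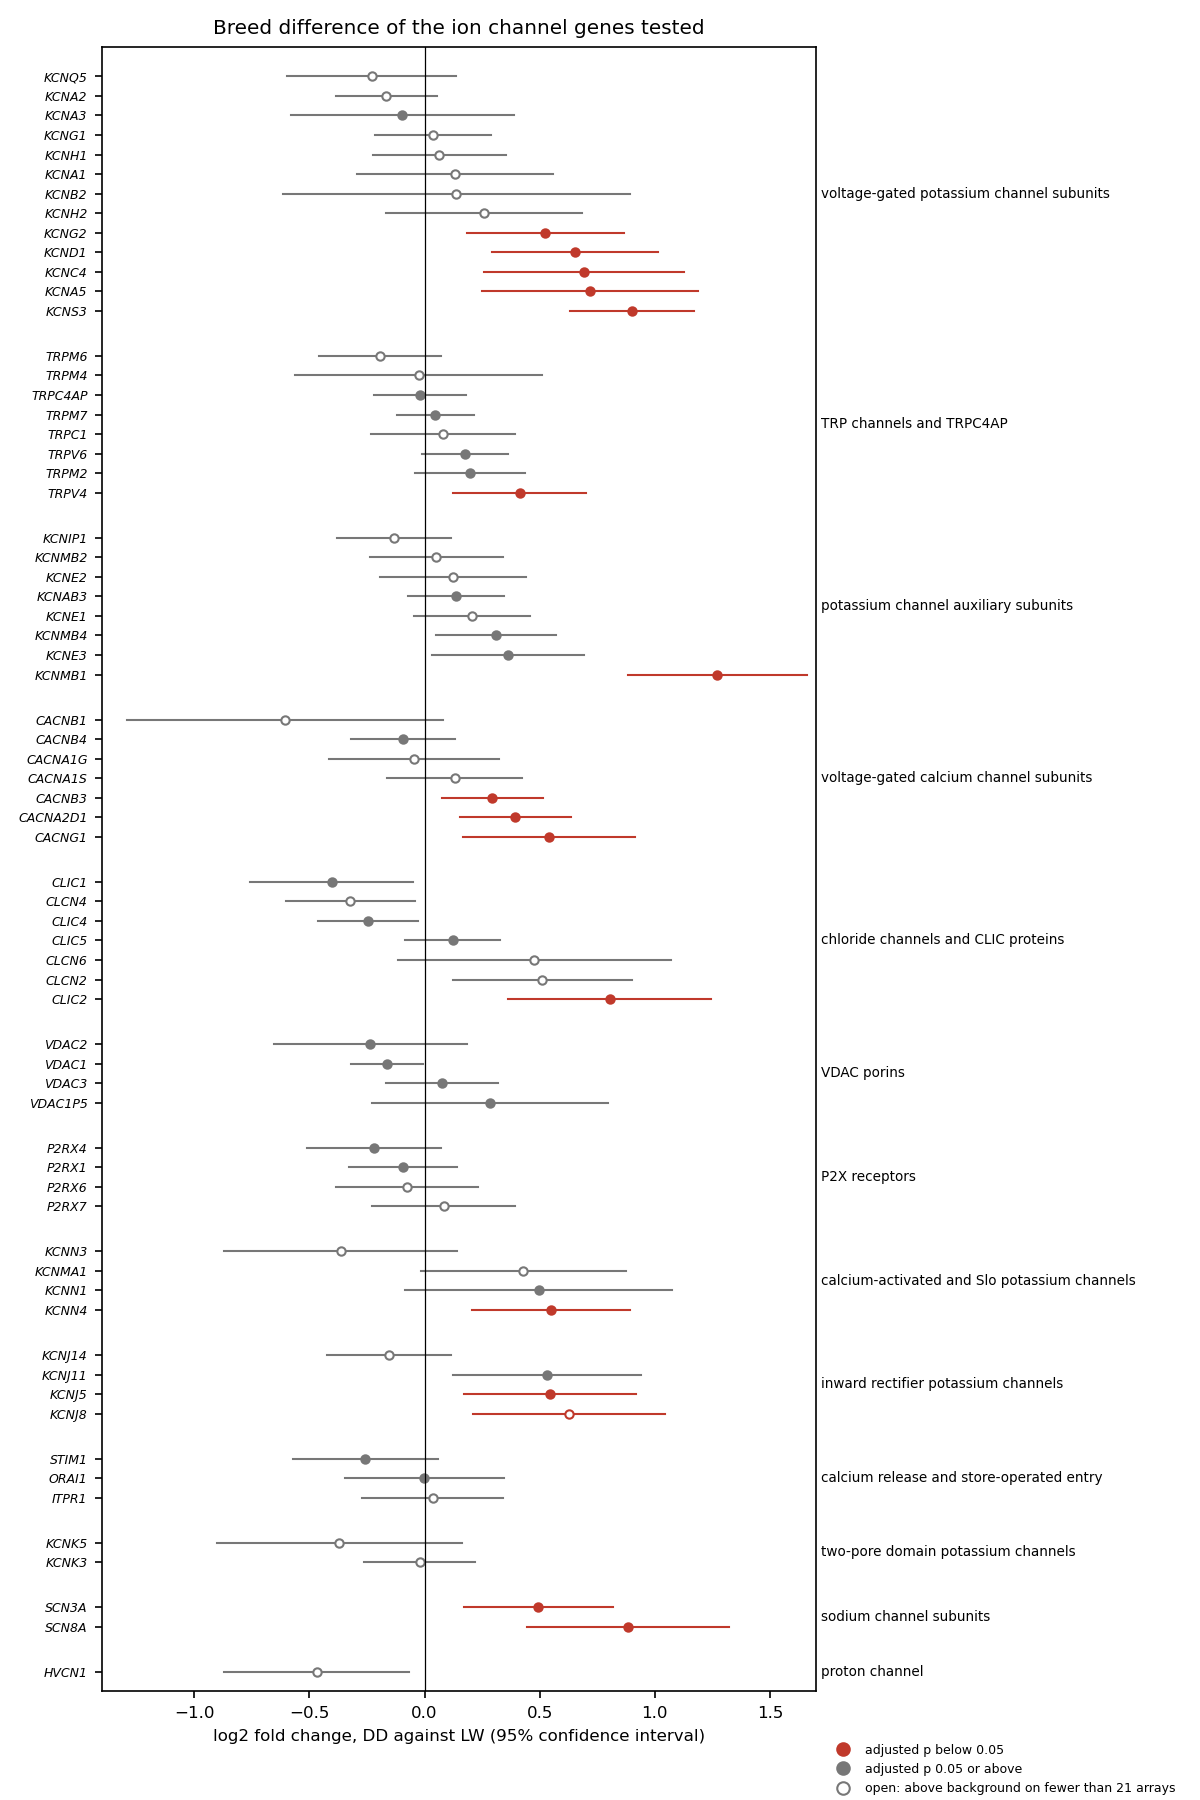
Log2 FC of DD against LW pigs with its 95% confidence interval (x axis) for the channel genes tested, grouped by family, with 1 gene not shown. Red points passed an adjusted p of 0.05 and all lie to the right of 0, from 0.29 for CACNB3 to 1.27 for KCNMB1, while open points mark genes above background on fewer than 21 arrays.

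The size of the difference depended on the chip for most of these 16 genes. KCNMB1, KCNS3, SCN8A and CLIC2 differed by more than 0.5 on the log2 scale within each chip. In 10 of the 16 genes the difference within chip 1 was below 0.1 in size, and in KCNC4, SCN3A and TRPV4 it was slightly negative. The median difference over the 16 genes was 0.06 within chip 1, 0.63 within chip 2 and 1.06 within chip 3. In 8 of the 16 genes, the 3 DD pigs of chip 3 held the 3 highest values of all 21 pigs. With the brightness of the array added to the model, 3 of the 68 channel genes tested passed as higher, where 0.924% of all genes did. They were KCNMB1, KCNS3 and SCN8A, all among the 16. Without chip 3, KCNS3 was the 1 gene of the 68 that passed, where 0.451% of all genes passed as higher. The part of array brightness in the other differences was not tested further.

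**Figure D3:**
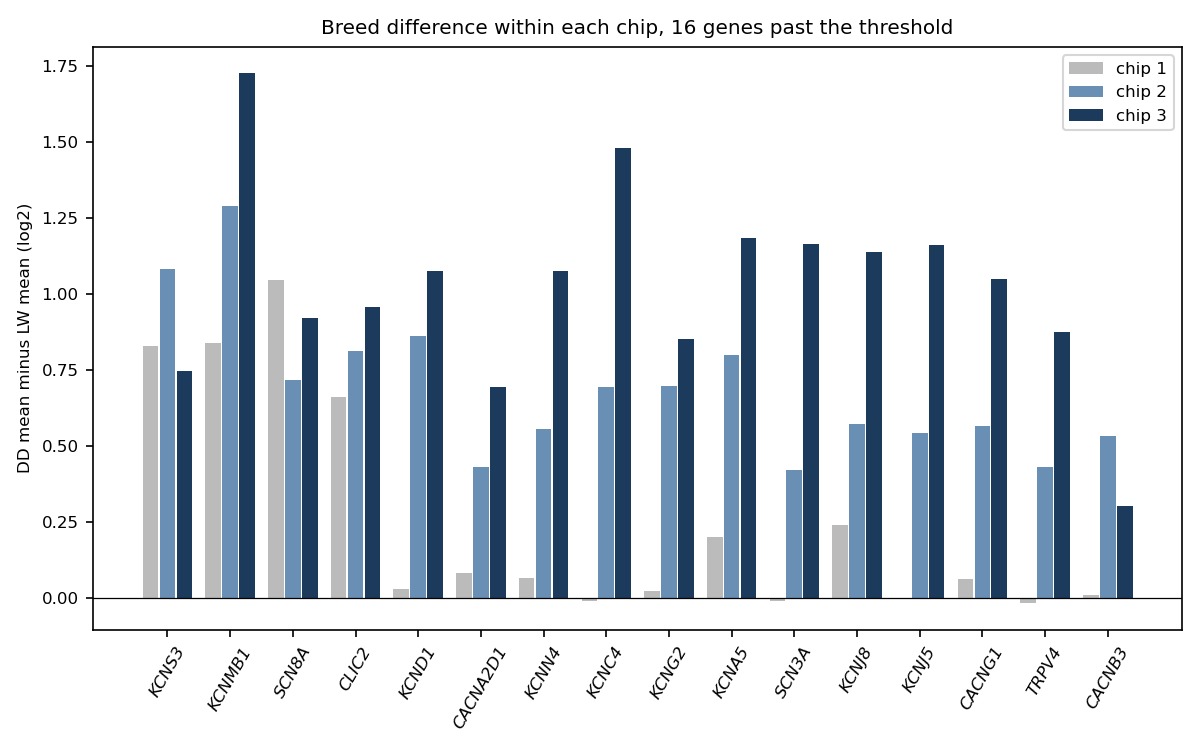
DD mean minus LW mean (log2, y axis) within chip 1, chip 2 and chip 3 for the 16 channel genes past the threshold, ordered by adjusted p. The bars of chip 1 are near 0 for 10 genes and above 0.5 for KCNS3, KCNMB1, SCN8A and CLIC2.

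The potassium channel auxiliary subunits held the largest difference. KCNMB1, the beta 1 subunit of the large-conductance calcium-activated potassium channel and best known from smooth muscle, lies on chromosome 16 (chr16:53616532-53631197, Sscrofa11.1). It was measured by 1 probe, above background on all arrays. The log2 values ran from 7.90 over a median of 8.44 to 10.1 in DD pigs and from 6.84 over 7.22 to 8.49 in LW pigs. Of the 10 DD pigs, 10 were above the LW median and 4 above the highest LW pig, so that the groups overlapped. The log2 FC was 1.27 ± 0.19 (SE, adjusted p = 0.000166 by limma), a 2.41-fold higher expression in DD pigs. The difference was 0.84 within chip 1, 1.29 within chip 2 and 1.73 within chip 3. With array brightness in the model it was 1.04 (limma adjusted p = 0.0254), and without chip 3 it was 1.04 (limma adjusted p = 0.0529).

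The pore subunit that KCNMB1 modulates, KCNMA1, was above background on 6 DD and 6 LW arrays, and its log2 FC was 0.43 ± 0.21 (SE, adjusted p = 0.141 by limma). Of the 8 auxiliary subunits tested, 7 had a positive log2 FC and KCNMB1 was the 1 that passed. KCNMB4 gave 0.31 (limma adjusted p = 0.0737) as the mean of 2 probes, of which 1, above background on all arrays, gave 0.56 (limma adjusted p = 0.0482) and the other, above background on 1 array, gave 0.06. KCNE3, a small subunit that alters the gating of voltage-gated channels, had log2 values from 5.62 to 7.24 in DD pigs and from 5.70 to 6.48 in LW pigs, with a log2 FC of 0.36 ± 0.16 (SE, adjusted p = 0.098 by limma). This value averages probe 1, above background on 1 array and without a difference, with probe 4 (0.44, limma adjusted p = 0.135) and probe 5 (0.64, limma adjusted p = 0.0325), both above background on all arrays. KCNE3 passed, at 0.54 (limma adjusted p = 0.0196), with only probes well above background on 10 arrays kept, at 0.68 (limma adjusted p = 0.0278) with 75th percentile scaling, at 0.28 (limma adjusted p = 0.0362) with a normexp offset of 50 and at 0.51 (limma adjusted p = 0.0316) without chip 2, whereas it was 0.098 without chip 3 and 0.087 with array brightness in the model.

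The start of each probe is shown for the genes whose breed difference was above 0.5 within each chip, because the target sequence decides what a probe reads. The first 30 of 60 bases are given as in the scanner files, and capitals mark bases that lie in a run of at least 20 shared with another probe of the array.
KCNMB1: attatcgtcatagtgaaggtcaaccagtcc
KCNS3 probe 1: tttccatcgccctggaccagacgaggaact
KCNS3 probe 3: gaggcccattaaatgccttgctctgaaagt
CLIC2 probe 1: agctgacactggctgactgcagtttgttac
SCN8A: AAGTGACCGTTAAATGACACGGGCTAAATG
The probes of KCNMB1, KCNS3 and CLIC2 shared no such run with any other probe, and the SCN8A probe is present on the array again under a clone name.

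Among the 13 voltage-gated potassium channel subunits tested, 5 were higher in DD pigs. KCNS3 encodes a silent subunit that forms no channel on its own and modifies KCNB channels, and lies at chr3:119951110-119989541. Its log2 values were between 5.66 and 6.95 in DD pigs, with a median of 6.36, and between 4.91 and 6.17 in LW pigs, with a median of 5.24. Of the DD pigs, 7 of 10 were above the highest LW pig, the clearest separation by this count among the 16 genes. The log2 FC was 0.90 ± 0.13 (SE, adjusted p = 0.000121 by limma). Both probes that passed the filter were higher in DD pigs, with a log2 FC of 0.81 for probe 1 and 0.99 for probe 3, whereas probe 2 was above background on 0 arrays. KCNS3 passed in all 16 other settings across all chips or 2 of the 3, with a log2 FC from 0.49 with a normexp offset of 50 to 1.32 with 75th percentile scaling, and 0.66 without the filter. It kept its difference with array brightness in the model (0.94, limma adjusted p = 0.0051) and without chip 3 (0.98, limma adjusted p = 0.0107).

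KCNA5, KCNC4, KCND1 and KCNG2 also passed. KCNA5 and KCNC4 are pore subunits of delayed rectifier and fast voltage-gated channels. For KCNA5, the log2 values ran from 12.2 over 13.4 to 14.6 in DD pigs and from 11.1 over 12.8 to 13.8 in LW pigs, and the log2 FC was 0.72 ± 0.23 (SE, adjusted p = 0.0289 by limma). This value rests on 1 of 3 probes, since the other 2 were above background on at most 1 array. The difference of KCNA5 was 0.20 within chip 1 and 1.18 within chip 3, and 0.07 with array brightness in the model (limma adjusted p = 0.978). For KCNC4, the values ran from 8.15 over 9.08 to 10.75 in DD pigs and from 7.49 over 8.69 to 9.52 in LW pigs, with a log2 FC of 0.69 ± 0.21 (SE, adjusted p = 0.0252 by limma). The difference of KCNC4 within chip 1 was −0.01, against 1.48 within chip 3.

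KCND1, a pore subunit of A-type currents on chromosome X, ran from 9.32 over 9.95 to 11.4 in DD pigs and from 8.58 over 9.70 to 10.6 in LW pigs. Its log2 FC was 0.65 ± 0.17 (SE, adjusted p = 0.0152 by limma), with 0.03 within chip 1 and 1.07 within chip 3. KCNG2, another silent subunit, ran from 16.6 over 17.3 to 17.7 in DD pigs and from 15.9 over 16.7 to 17.6 in LW pigs, with a log2 FC of 0.52 ± 0.16 (SE, adjusted p = 0.0288 by limma). Only 1 DD pig was above the highest LW pig. The means of KCNG2, 17.2 in DD and 16.7 in LW pigs, were close to those of 2 erythroid markers. These were HBB (17.6 and 17.4) and AHSP (17.5 and 17.7). Whether the 1 probe of KCNG2 reads this gene was not tested. The probes of KCNA5 and KCNG2 are rich in G and C, with 66.7% and 71.7% of their bases, against a median of 45.0% over the 56 channel probes that were above background on all arrays. Their starts are shown for that reason.
KCNA5 probe 2: cgcctctcctgcccaggaccctggcggacc
KCNG2: aagctgaagctgctgcgcggcccctgcgcc

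KCNA3, the main voltage-gated potassium channel of T cells, ranged from 7.38 to 9.23 in DD pigs and from 7.17 to 9.34 in LW pigs. These ranges nearly coincide, and the log2 FC was −0.10 with a 95% confidence interval from −0.58 to 0.39 (limma adjusted p = 0.778).

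Both sodium channel genes tested were higher in DD pigs. SCN8A, the pore subunit of a sodium channel of neurons that is also expressed by macrophages, lies at chr5:16977468-17173831. The log2 values lay closely together in DD pigs, from 7.63 over 7.91 to 8.18, and were spread in LW pigs, from 6.06 over 6.85 to 8.08. The DD pigs all exceeded the LW median, and 9 of 11 LW pigs were below the lowest DD pig. The log2 FC was 0.88 ± 0.21 (SE, adjusted p = 0.00877 by limma), with differences of 1.05, 0.72 and 0.92 within the 3 chips. The second probe with the identical 60 bases gave 8.19 ± 0.18 (SD, n = 10) for DD against 7.29 ± 0.75 (SD, n = 11) for LW, so that the 2 spots of the same sequence gave a like difference. With array brightness in the model the log2 FC was 1.13 (limma adjusted p = 0.0288), and without chip 3 it was 0.88 (limma adjusted p = 0.141).

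SCN3A, a further pore subunit of neurons, ran from 6.79 over 7.26 to 9.33 in DD pigs and from 6.49 over 7.13 to 7.81 in LW pigs. The 3 DD pigs above the highest LW pig were those of chip 3. Its log2 FC was 0.49 ± 0.16 (SE, adjusted p = 0.0291 by limma), with −0.01 within chip 1 and 1.16 within chip 3.

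Of the calcium-activated potassium channels, KCNN4 passed. KCNN4 is opened by calcium bound to calmodulin and is active in red cells and T cells. The log2 values ran from 5.50 over 6.24 to 8.20 in DD pigs and from 5.25 over 5.73 to 6.81 in LW pigs. Although 9 of 10 DD pigs were above the LW median, the 3 pigs above the highest LW pig were the DD pigs of chip 3. The log2 FC was 0.55 ± 0.16 (SE, adjusted p = 0.0248 by limma), and it was 0.09 with array brightness in the model (limma adjusted p = 0.95). The gene has 3 probes, of which probes 1 and 3 have the same sequence and were above background on 0 arrays, so that the value comes from probe 2.
KCNN4 probe 1: AGAGCTGCACAGAATTACCTGGTCGGCTCT
KCNN4 probe 2: taaatgcatgatcagcatttccacgttctt
KCNN4 probe 3: AGAGCTGCACAGAATTACCTGGTCGGCTCT
Probe 2 shares no run of 20 bases with the others.

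Among the inward rectifiers, KCNJ8 and KCNJ5 passed. KCNJ8 is a pore subunit of ATP-sensitive potassium channels, and KCNJ5 one of the channels opened by G proteins. KCNJ8 was above background on 6 DD and 5 LW arrays, and ran from 4.42 over 5.02 to 6.34 in DD pigs and from 4.10 over 4.61 to 5.60 in LW pigs. Its log2 FC was 0.63 ± 0.20 (SE, adjusted p = 0.0311 by limma). KCNJ5 ran from 6.30 over 6.77 to 8.71 in DD pigs and from 5.92 over 6.70 to 7.46 in LW pigs, with a log2 FC of 0.55 ± 0.18 (SE, adjusted p = 0.0345 by limma). The medians of KCNJ5 were close, and its difference within chip 1 was 0.00. KCNJ11, the other pore subunit of ATP-sensitive channels, had a log2 FC of 0.53 ± 0.20 (SE, adjusted p = 0.053 by limma) and did not pass.

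The voltage-gated calcium channels are built from an alpha 1 pore with beta, alpha 2 delta and gamma subunits. The 3 genes that passed encode accessory subunits. CACNA2D1, an alpha 2 delta subunit, ran from 7.51 over 7.93 to 9.46 in DD pigs and from 7.12 over 7.77 to 8.87 in LW pigs, with a log2 FC of 0.39 ± 0.12 (SE, adjusted p = 0.0234 by limma). CACNG1, a gamma subunit known from skeletal muscle, ran from 7.10 over 7.88 to 8.94 in DD pigs and from 6.22 over 7.37 to 8.82 in LW pigs, with a log2 FC of 0.54 ± 0.18 (SE, adjusted p = 0.036 by limma). CACNB3, a beta subunit, had the smallest difference of the 16 genes, at 0.29 ± 0.11 (SE, adjusted p = 0.0484 by limma). Its values ran from 10.8 over 11.0 to 12.1 in DD pigs and from 10.3 over 10.9 to 11.9 in LW pigs, and 1 DD pig was above the highest LW pig. The 2 alpha 1 pore genes tested were near background, as CACNA1G was above it on 2 DD and 4 LW arrays and CACNA1S on 1 DD and 0 LW arrays.

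The store-operated calcium entry genes under the names of the rule, ORAI1 and STIM1, did not pass. The probe named Stim2 and, with updated names, ORAI3 passed and are given further below. ORAI1, the pore of the channel, ran from 8.72 over 9.89 to 10.2 in DD pigs and from 8.89 over 9.86 to 10.3 in LW pigs. Both breeds covered the same range, and the log2 FC was 0.00 in size with a 95% confidence interval from −0.35 to 0.35. STIM1, the calcium sensor of the endoplasmic reticulum, ran from 8.82 over 9.08 to 10.0 in DD pigs and from 9.01 over 9.14 to 11.2 in LW pigs, with a log2 FC of −0.26 ± 0.15 (SE, adjusted p = 0.212 by limma). Its 2 probes agreed in sign, with −0.28 and −0.23. The size of their mean leans on LW pig 22, at 11.2 against 9.93 in the next LW pig, and was −0.11 without this animal. The SD among LW pigs was 0.18 for probe 1 and 1.32 for probe 2. Probe 1 alone gave −0.28 ± 0.11 (SE, adjusted p = 0.0643 by limma). STIM1 passed as lower when the probe of highest mean stood for each gene. For ITPR1 the log2 FC was 0.03 with a 95% confidence interval from −0.27 to 0.34.

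Of the 9 TRP genes tested, TRPV4 passed. TRPV4, a calcium-permeable channel opened by warmth and cell swelling, ran from 7.17 over 7.82 to 9.05 in DD pigs and from 6.80 over 7.56 to 8.09 in LW pigs. Its log2 FC was 0.41 ± 0.14 (SE, adjusted p = 0.0375 by limma), with −0.02 within chip 1 and 0.88 within chip 3. TRPM2, a channel of phagocytes opened by ADP-ribose, had a log2 FC of 0.20 ± 0.12 (SE, adjusted p = 0.208 by limma), and TRPM7, a channel fused to a kinase, one of 0.05 ± 0.08 (SE, adjusted p = 0.693 by limma). None of the P2X receptors, the channels opened by extracellular ATP, passed. P2RX1 gave a log2 FC of −0.09 (95% confidence interval from −0.33 to 0.14), P2RX4 one of −0.22 (from −0.51 to 0.07) and P2RX7 one of 0.08 (from −0.23 to 0.39).

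Of the 7 chloride channel and CLIC genes tested, CLIC2 was higher in DD pigs. CLIC2 belongs to the chloride intracellular channel proteins, which exist in a soluble and a membrane form, and lies at chrX:125546451-125560059. The log2 values ran from 8.64 over 9.49 to 10.6 in DD pigs and from 8.08 over 8.52 to 9.57 in LW pigs. The 10 DD pigs were all above the LW median, and 4 were above the highest LW pig. The log2 FC was 0.80 ± 0.21 (SE, adjusted p = 0.0151 by limma), with 0.66, 0.81 and 0.96 within the 3 chips. With array brightness in the model it was 0.27 (limma adjusted p = 0.766). Probe 2 of CLIC2 was above background on 0 DD and 1 LW arrays, and the value rests on probe 1.

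CLIC1, the related protein of macrophages and other leucocytes, moved the other way without passing. Its values ran from 10.65 over 10.99 to 11.9 in DD pigs and from 10.8 over 11.6 to 12.3 in LW pigs, and 3 of 10 DD pigs were above the LW median. The log2 FC was −0.40 ± 0.17 (SE, adjusted p = 0.0847 by limma). Both probes gave a negative value, of −0.49 ± 0.15 (SE, adjusted p = 0.0295 by limma) for probe 1, which passed when tested alone, and of −0.32 ± 0.28 (SE, adjusted p = 0.431 by limma) for probe 2. Their starts are shown because both share most of their bases with other probes of the array, which serve here as further readings.
CLIC1 probe 1: atttTTATTGTGGGGTGGGGTGGGTAGGAC
CLIC1 probe 2: AAAGTCTTAGACAATTACTTGACATCCCCT
On the same strand, the 2 probes with 56 shared bases gave 12.7 ± 0.50 and 12.3 ± 0.47 (SD, n = 10) for DD against 13.2 ± 0.35 and 12.8 ± 0.37 (SD, n = 11) for LW, the direction of probe 1. A probe with all 60 bases of probe 2 gave 10.0 ± 0.84 against 10.4 ± 0.90. The 2 antisense probes with the 56 bases on the opposite strand were above background on all arrays as well, and were higher in DD pigs, at 10.2 ± 0.64 and 10.1 ± 0.63 (SD, n = 10) against 9.70 ± 0.48 and 9.64 ± 0.48 (SD, n = 11). The antisense probe to all 60 bases of probe 2 was above background on 4 DD and 9 LW arrays and was not higher in DD pigs, at 4.99 ± 0.34 (SD, n = 10) against 5.31 ± 0.53 (SD, n = 11). Of 2 further probes on the strand of probe 1, 1 with 37 shared bases gave 8.72 ± 0.51 for DD against 9.06 ± 0.51 for LW, and 1 named CNOT4, with 30 shared bases, gave 7.93 ± 1.08 against 7.59 ± 0.70.

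The proton channel HVCN1, which sustains the oxidative burst of phagocytes, was above background on 8 DD and 11 LW arrays and had a log2 FC of −0.47 ± 0.19 (SE, adjusted p = 0.0791 by limma). A probe named hvcn1 in small letters, above background on 9 DD and 11 LW arrays, gave −0.06 (limma adjusted p = 0.812), and HVCN1 itself gave −0.04 with array brightness in the model. Of the VDAC porins, VDAC1 had a log2 FC of −0.16 ± 0.08 (SE, adjusted p = 0.117 by limma), VDAC2 one of −0.24 ± 0.20 (SE, adjusted p = 0.394 by limma) and VDAC3 one of 0.08 ± 0.12 (SE, adjusted p = 0.646 by limma). The 4 probes of VDAC1 ranged from −0.34 to 0.10, and 1 of them, probe 2, passed on its own (limma adjusted p = 0.0215). The 6 probes named VDAC1P5 gave positive values from 0.18 to 0.37, and none passed. By their identifier in the RefSeq table these probes read VDAC3, and the value of 0.08 given for VDAC3 comes from 1 other probe.

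**Figure D4:**
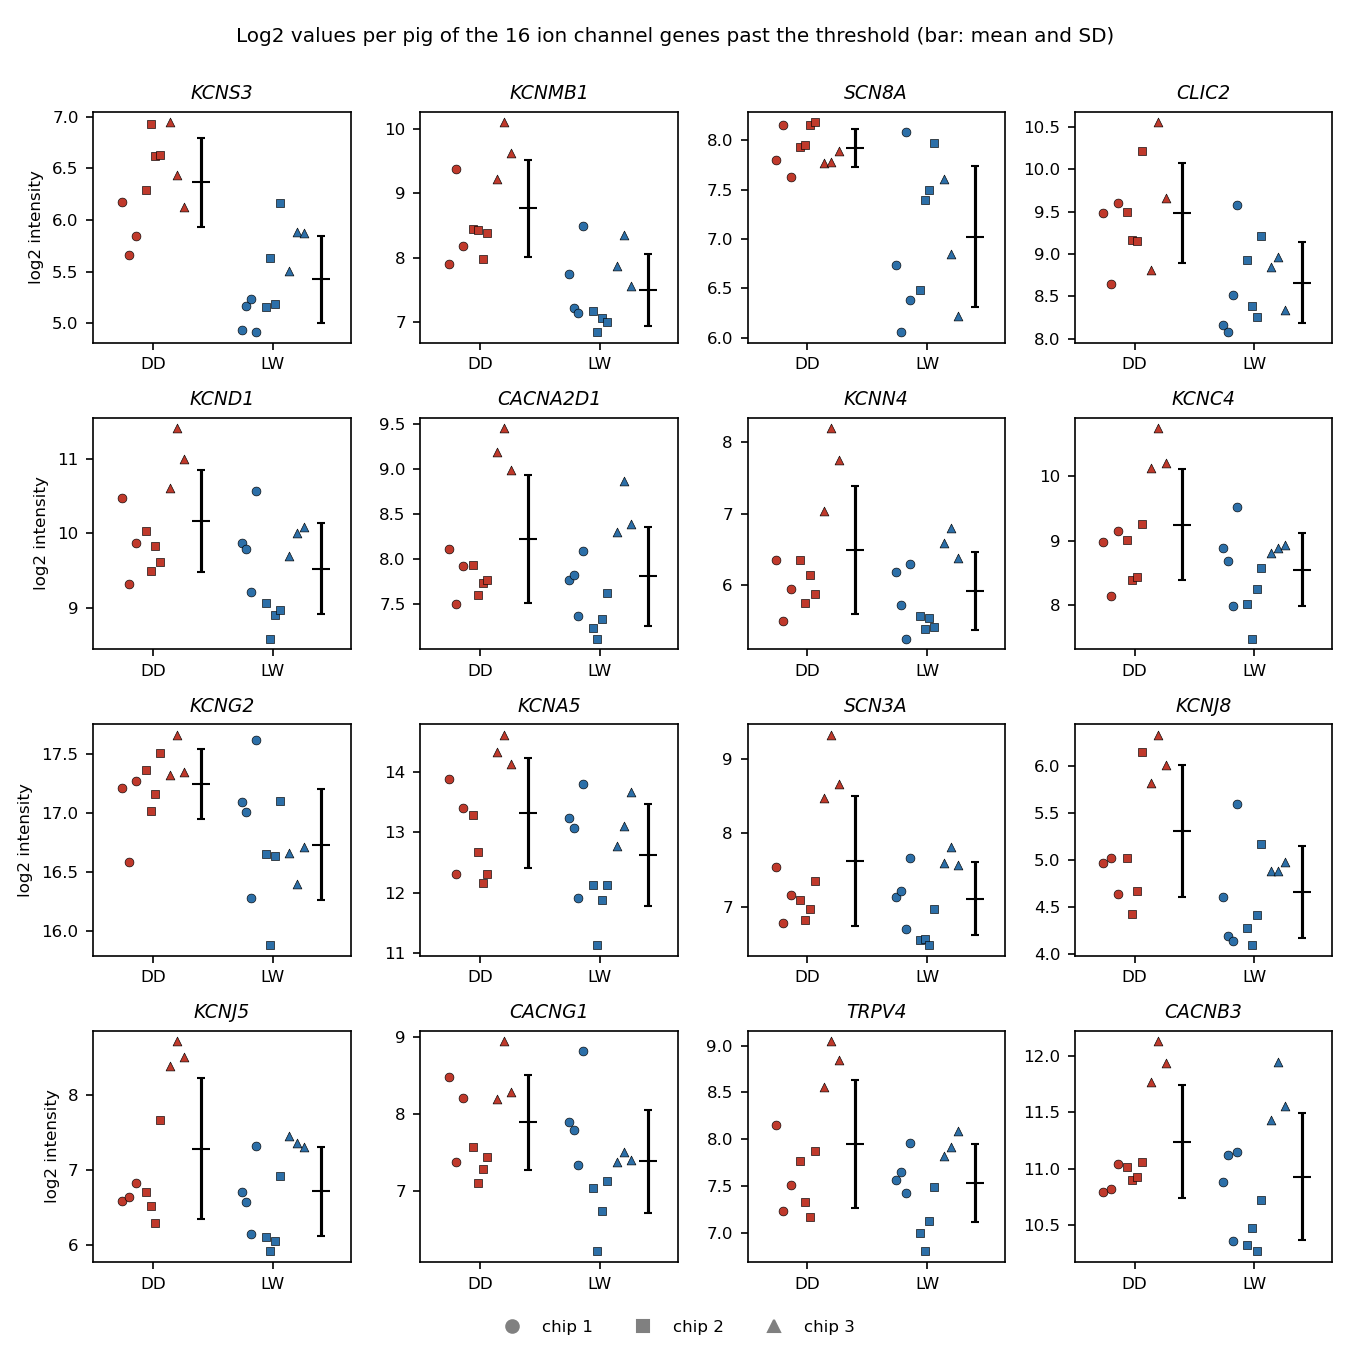
Log2 intensity (y axis) of the 16 channel genes past the threshold in each pig, with DD in red, LW in blue, the chip as the symbol and the mean with its SD at the right of each group. For KCNS3, 7 of 10 DD pigs are above all LW pigs. In 8 genes the 3 highest values are the DD pigs of chip 3 (triangles), namely CACNA2D1, KCNA5, KCNC4, KCND1, KCNJ5, KCNN4, SCN3A and TRPV4.

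Some channel genes are named with small letters on the array and fall outside the rule. With the letter case ignored, 77 genes were tested, of which 18 were higher and 1 was lower in DD pigs. KCNAB2, the beta 2 subunit of KCNA channels and abundant in T cells, was the gene that was lower. Its probe gave 10.4 ± 0.18 (SD, n = 10) for DD against 10.9 ± 0.20 (SD, n = 11) for LW, with a log2 FC of −0.45 ± 0.09 (SE, adjusted p = 0.0033 by limma). The probe named Stim2, for the second calcium sensor of the endoplasmic reticulum, gave 6.15 ± 0.98 against 5.64 ± 0.62, and a log2 FC of 0.48 ± 0.16 (SE, adjusted p = 0.0324 by limma). The probe named P2rx3, for an ATP receptor of sensory neurons, gave 7.19 ± 0.88 against 6.56 ± 0.50, and a log2 FC of 0.61 ± 0.22 (SE, adjusted p = 0.0442 by limma). With gene names updated through accessions, 85 genes were tested, and 18 were higher and 3 lower, the 3 being CLCN3, KCNAB2 and ORAI3. The log2 FC of ORAI3 was −0.41 ± 0.12 (SE, adjusted p = 0.0235 by limma). Over all genes, 1370 of 12339 passed as higher and 1535 as lower with letter case ignored. With updated names these were 1319 and 1515 of 11895. The channel genes that passed were mostly higher in DD pigs under both namings, with 1 and 3 lower.

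Other genes of ion handling were taken from lists outside the rule. Their counts stand beside a share over all genes tested of 10.9% higher and 12.7% lower in DD pigs. Of 21 calcium handling genes tested, 1 was higher and 2 were lower in DD pigs, and the median log2 FC was −0.05. CALR, a calcium-binding chaperone of the endoplasmic reticulum, had a log2 FC of 0.50 (limma adjusted p = 0.0145). The calcium pump of the Golgi, ATP2C1, had one of −0.46 (limma adjusted p = 0.0033) and PPP3CB, a catalytic subunit of calcineurin, one of −0.27 (limma adjusted p = 0.0311). Of 17 genes for other channels, 3 were higher and 0 lower, with a median of 0.10. These were TMEM63A and TMEM63B, channels opened by membrane tension, at 0.37 (limma adjusted p = 0.00509) and 0.41 (limma adjusted p = 0.0152), and the sodium leak channel NALCN at 0.46 (limma adjusted p = 0.0275).

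Some blood cell markers moved with the breed as well. Of the 69 markers listed, 30 were not tested, among them PF4, ALAS2 and HBA1. Of 7 erythroid markers tested, EPB42 and CA1 passed as higher in DD pigs and 0 passed as lower, with a median log2 FC of 0.55. The log2 FC was positive in 5 of the 7 and negative in 2, AHSP (−0.27) and SLC4A1 (−0.05). The mean log2 level of the list was between 10.4 and 11.9 in DD pigs and between 10.1 and 11.3 in LW pigs. Of 6 T cell markers, CD3D and CD3G were lower in DD pigs, the median was −0.29, and the list level was between 8.68 and 9.93 in DD pigs and between 9.06 and 10.1 in LW pigs. Of 5 platelet markers, PPBP was lower, with a median of −0.15 and a list level of 7.42 to 9.30 against 7.95 to 9.13. Of 5 monocyte markers, CD163 was lower, with a median of 0.08 and a list level of 7.24 to 8.19 against 7.38 to 8.04. None of the 4 B cell, 6 neutrophil and 6 NK and cytotoxic markers passed, and their medians were 0.14, 0.12 and −0.31. The list levels in DD and LW pigs were 7.70 to 9.47 and 7.90 to 9.76 for B cells, 8.67 to 10.9 and 9.29 to 11.1 for neutrophils, and 7.78 to 9.87 and 7.84 to 10.1 for NK and cytotoxic cells. The part of the blood cell composition in the channel differences was not tested.

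**Figure D5:**
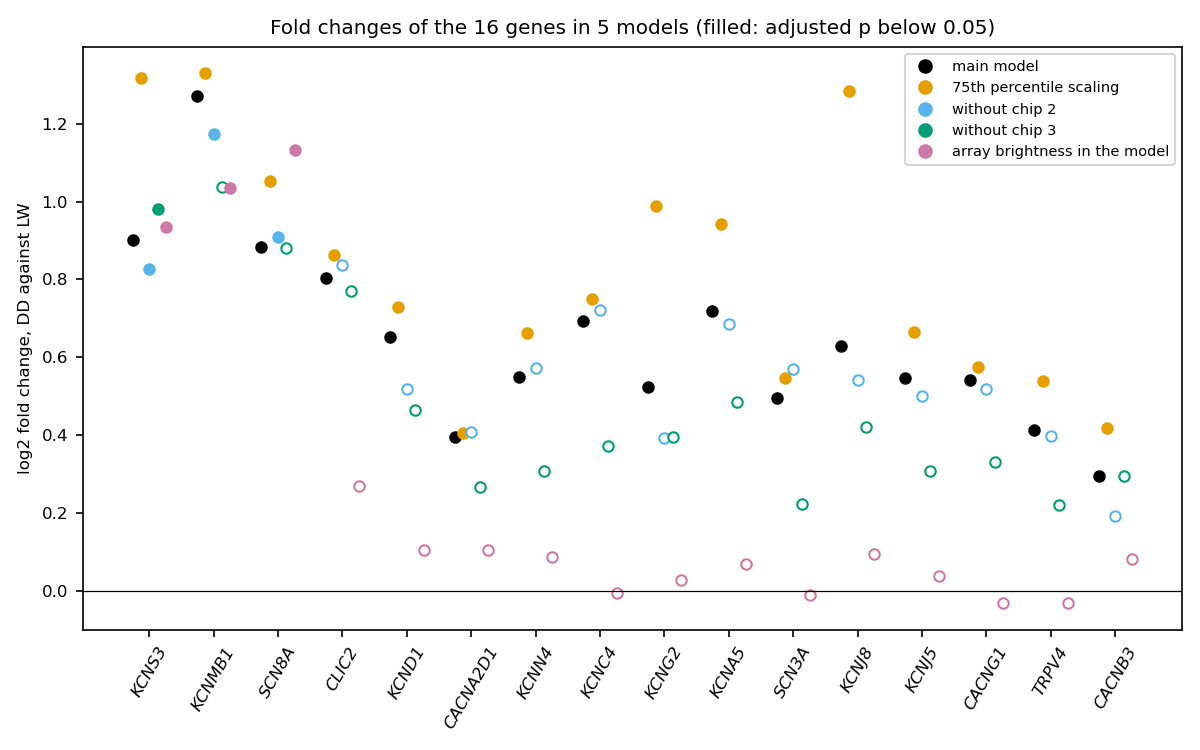
Log2 FC of DD against LW pigs (y axis) for the 16 channel genes past the threshold under 5 models, filled where the adjusted p was below 0.05. KCNMB1, KCNS3 and SCN8A are at 0.83 or above in all 5, whereas the other 13 genes lie between −0.03 and 0.27 with array brightness in the model.

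The choice of signal and scaling also bore on the direction. In 1 alternative, the processed signal of the scanner was scaled to the 75th percentile of each array. It replaced the normexp-corrected and quantile-normalized values, so that background correction and scaling changed together. Which of these moved the calls was not tested. With it, 13.3% of all genes passed as higher in DD pigs, and 63.4% of all calls were higher against 46.3% in the deposited values. Under this scaling the 16 genes all passed, and the median log2 FC of the channel genes was 0.33.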

How the data were processed

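Blood RNA of 10 DD and 11 LW pigs was measured on one-colour arrays read with Agilent Feature Extraction 10.7.3.1 (per the labels). The authors deposited the scanner intensity and background flags of each array, and, for the series, log2 values made by normexp background correction and quantile normalization once outlier arrays were gone. The deposited log2 values were used here, and correlated with a recomputation at r = 0.998 to 0.999 over probes. Controls and the 25% of probes with the lowest mean were removed, and probes of one name were averaged. In limma 3.58.1 the model held breed, chip and a random effect of the sow (consensus correlation −0.10) under R 4.3.3, with eBayes and Benjamini-Hochberg adjustment over 13524 genes, two-sided, threshold 0.05. The negative correlation means that siblings were fitted as less alike than unrelated pigs. The sow term did not make the test stricter, as 3185 genes passed with it and 2370 without it. Coordinates are from RefSeq (Sscrofa11.1). Members and lists were chosen with earlier results of these data known. Named are all members past the threshold, members known from blood cells, by name members without signal, and from outside lists those past the threshold, up to 5 each. Of the members listed for blood cells, ORAI2, ORAI3, STIM2, ITPR2, ITPR3, KCNAB2, KCNJ2, KCNK6, TRPV2, CLIC3, CLCN3 and CLCN7 have no probe so named in capitals. Letter case was ignored only as an alternative chosen after seeing the data. Other choices tried are given at the end. Steps were tested on simulated data. Some items are not reported here.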

Additional observations from a re-analysis of the deposited data

Results flagged for a closer look

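Among the named genes, a value of 1 DD pig lay far from the others in 2 genes, by a gap to the next value that was large against the range of the group (Dixon's test at the 95% level, which flags about 1 in 20 groups by chance). Both values are the highest of DD pig 21, an animal of chip 3. STIM1 was 10.0 in this pig and 9.41 in the next DD pig. TRPM2 was 7.06 in this pig and 6.41 in the next. Neither gene passed the threshold between the breeds. The LW pigs were not examined in this way.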

How the results depend on the processing

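The count of channel genes higher in DD pigs was 16 in the model reported and between 12 and 22 under most other choices. It fell to 8 without the filter on low probes, where dim probes enter the averages, to 4 without the chip term, to 6 without chip 2 (3 of them among the 16), to 1 without chip 3 and to 3 with array brightness in the model. Over all genes, 1143 of 16009 passed as higher without the filter, where 98 channel genes were tested. Of 13524 genes, 282 passed as higher without the chip term and 923 without chip 2. The count of lower genes, 0 in the model reported, was 1 with offset 50 (VDAC1), with probes well above background on 10 arrays (KCNQ5), without chip 1 (CLIC1), without chip 2 (CLCN4), with litter means and with letter case ignored (KCNAB2), 3 with the probe of highest mean (CLIC1, STIM1, VDAC1), 3 with updated names, and 2 with each probe tested (VDAC1, CLIC1). The median log2 FC, 0.10 in the model reported, was 0.33 with 75th percentile scaling, 0.23 with probes well above background on 10 arrays, 0.28 within chip 3, and 0.01 both within chip 1 and with array brightness in the model. Leaving out each pig in turn, the count of higher genes ran from 5 to 18, that of lower genes from 0 to 3, and the median from 0.07 to 0.12. The count of higher genes was 5 without DD pig 21, 10 without DD 23, 8 without LW 5, 7 without LW 12, 6 without LW 18, 9 without LW 22 and 8 without LW 24, and lower genes appeared without DD 6 (2), DD 16 (2), DD 21 (1), LW 7 (3) and LW 15 (1). Over all genes, 1474 passed as higher in the model reported. In the same order of pigs this count was 708, 956, 939, 809, 789, 968 and 872. As lower, 1711 genes passed in the model reported. This became 2414 without DD 6, 1842 without DD 16, 1017 without DD 21, 2355 without LW 7 and 1640 without LW 15. KCNMB1, KCNS3, SCN8A, CLIC2 and KCND1 passed in all 21 of these fits. Over all genes, the 3185 calls became 2370 without the sow term, 848 without the chip term, 159 without chip 3, 309 with array brightness, and 1725 to 4377 when a pig was left out. Without the sow term, 12 of the 16 channel genes passed, and CACNB3, CACNG1, KCNJ5 and TRPV4 did not.

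The sign turned in genes with small differences. With array brightness in the model the log2 FC was −0.0059 for KCNC4, −0.012 for SCN3A, −0.031 for CACNG1, −0.032 for TRPV4, 0.074 for ORAI1, 0.32 for KCNA3, −0.12 for P2RX7, −0.0052 for TRPM2, 0.080 for VDAC2 and −0.031 for VDAC3. Within chip 1 it was −0.011 for KCNC4, −0.0095 for SCN3A and −0.017 for TRPV4. ORAI1 was 0.055 with 75th percentile scaling, 0.19 without chip 2, and 0.023 with updated names or letter case ignored. P2RX7 was −0.20 without the filter and −0.041 without chip 3, ITPR1 was −0.14 without chip 1, and KCNA3 was 0.16 without chip 2. When a pig was left out, ORAI1 ran from −0.066 to 0.12, ITPR1 from −0.039 to 0.096 and KCNA3 from −0.25 to 0.0085. The cause of these changes was not tested. By the spot mean over the local background plus 2.6 SD in place of the scanner flag, 95 of the 98 genes were above background on at least 1 array, against 76, so that the number of channel genes with signal depends on how background is set. No paired analysis was possible because no animal number occurs in both breeds.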
